A study of Mus musculus with 9 samples.

Results

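Visceral motor neurons (MNs) of the mouse spinal cord were compared between its caudal and its more rostral regions after removal of the clusters V8 and V9. Members were the nuclei that the authors' annotation placed in V1 to V7 or V10, which are 8 of its 10 visceral clusters. The rule kept 4899 of 5613 visceral nuclei and of 16042 cholinergic nuclei in all, and left out 467 nuclei of V8 and 247 of V9. Of the V8 nuclei, 225, 116 and 122 came from lumbar/sacral replicates 1, 2 and 3, so the comparison asks what remained different between regions once this mostly caudal cluster was set aside.

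Nuclei were sorted as GFP+/DRAQ5+ from spinal cords of 8-week-old mice of the strain Chat-IRES-Cre::Sun1-sfGFP, with the genotype Chat-iCre:+/wt and SUN-SfGFP:+/wt. Every group carried both alleles, which put a fluorescent protein on the nuclear envelope of cells that express, or have expressed, choline acetyltransferase. Spinal cords of 12 mice were pooled as 4 mice of both sexes (replicate 1), 4 males (replicate 2) and 4 females (replicate 3). The cords of a pool were cut into 3 pieces (cervical, thoracic, lumbar/sacral), which gave 9 single-nucleus libraries. The 3 lumbar/sacral libraries were set against the 6 cervical and thoracic libraries, called rostral here, and lumbar and sacral nuclei cannot be told apart in them.

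Visceral MNs are the preganglionic neurons of the autonomic nervous system. They reach smooth muscle, heart and glands through a relay in peripheral ganglia rather than directly. Sympathetic preganglionic neurons lie mainly in thoracic and upper lumbar segments, whereas parasympathetic neurons that serve the bladder, bowel and genital organs lie in sacral segments. Their position along the cord is laid down in the embryo by Hox genes, and their acetylcholine acts on nicotinic receptors of ganglion cells.

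The lumbar/sacral libraries held 447, 333 and 253 member nuclei, with 2062034, 2285818 and 1351839 summed corrected counts. The rostral libraries held 357 to 1035 nuclei and 3375228 to 8500695 summed corrected counts. The median total of a nucleus was 5085 in lumbar/sacral and 8719 in rostral nuclei. A pair of libraries shared 0 to 2 cell barcodes over 36 pairs. The libraries labelled cervical replicate 2 and thoracic replicate 2 stood apart from the others of their regions. Hoxa9, a gene of posterior position, was at 0.423 and 0.562 CPM (corrected counts per 1000000 of the library's sum) in cervical replicates 1 and 3 and at 5.33 CPM in the library labelled cervical replicate 2. In thoracic replicates 1 and 3 it was at 6.94 and 3.84 CPM, and in the library labelled thoracic replicate 2 at 0.296 CPM. The main results below take all 6 rostral libraries as 1 group, so that none of them rests on telling cervical from thoracic. Alternatives at the end that set cervical or thoracic libraries apart do rest on these labels. What changed without these 2 libraries is given for the cluster shares, the count of genes called and the leading genes.

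The summed levels of 5 visceral markers (Zeb2, Fbn2, Chat, Prph and Nos1) were 1651 to 1939 CPM in lumbar/sacral and 1365 to 1640 CPM in rostral libraries, and none was at 0 in any library. Among them Fbn2, an extracellular fibrillin, rose from a median of 436 CPM in rostral libraries to 1167, 892 and 910 CPM, with a log2 difference of 1.14 (SE 0.17, adjusted p = 0.00749). Zeb2, a transcription factor of this class, fell by 0.59 on the log2 scale (SE 0.13, adjusted p = 0.0441), from 412 to 566 CPM in rostral libraries to 283, 307 and 330 CPM. Chat was at 192, 206 and 188 CPM in lumbar/sacral libraries and at 182 to 261 CPM in rostral ones (log2 difference -0.15, adjusted p = 0.872). The defining markers of visceral MNs were thus present in both groups. Markers of 6 skeletal MN genes summed to 508 to 588 CPM in lumbar/sacral and 677 to 875 CPM in rostral libraries, and those of 5 oligodendrocyte genes to 35.4 to 59.9 and 45.9 to 57.5 CPM. Astrocyte markers reached at most 26.3 CPM in any library, with Aqp4 and Gfap at 0 in at least 1 library. Microglial markers ran from 5.34 to 65.8 CPM in lumbar/sacral and from 4.38 to 57.1 CPM in rostral libraries. Of 5 glial and endothelial markers tested, 0 were called by limma and 1 was lower at an unadjusted p under 0.05 (Mbp, log2 difference -0.53), and their median log2 difference was 0.18 beside 0.06 over all genes.

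The mix of clusters differed between the regions. V6 made up 2.91, 3.003 and 2.77% of the member nuclei in lumbar/sacral libraries and 9.31 to 16.3% in rostral libraries, and the groups did not overlap. V1 made up 5.14, 7.81 and 9.49% against 15.7 to 24.4%, again without overlap. V3 was the cluster with the opposite pattern, at 20.6, 22.5 and 22.9% against 9.16 to 17.7%. In each of these 3 clusters a two-sided exact permutation test over 84 groupings of the libraries gave p = 0.0119, the smallest it can give, and an adjusted p of 0.0317 over 8 clusters. The mean differences were -12.1 percentage points for V1, 9.31 for V3 and -10.6 for V6. These shares leave V8 and V9 out of the total. As shares of all visceral nuclei only 2 clusters were called, V1 and V6, and the higher share of V3 was not. V2 (21.8% ± 4.59, SD, n = 3, against 12.8% ± 7.30, n = 6, exact permutation adjusted p = 0.167), V4, V5, V7 and V10 did not pass. When regions were permuted only within each pool of mice, over 27 assignments, V1, V3 and V6 had an exact permutation p of 0.037 and an adjusted p of 0.0988. This p is the smallest that 27 assignments can give, so 3 of 8 clusters at it could not pass, and the loss of these calls says nothing about the shares. Without the 2 rostral replicate 2 libraries the count was also 0, with a smallest possible p of 0.0286. V1 and V6 had this exact permutation p there, whereas V3 was not at an unadjusted p under 0.05. The clusters were made by the authors from the expression of the same nuclei, so a share is also a statement about where a cluster's border fell.

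**Figure D1:**
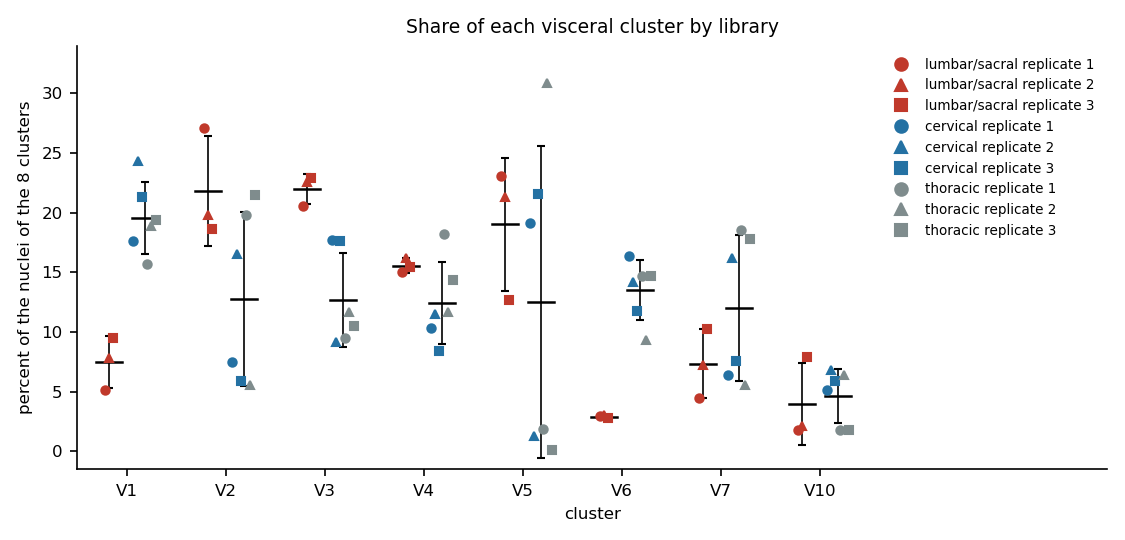
Share of each cluster (horizontal axis) among the nuclei of V1 to V7 and V10 in each library (vertical axis, percent), with lumbar/sacral libraries in red on the left and cervical and thoracic libraries in blue and grey on the right of each cluster. Bars are the mean and SD of the 3 lumbar/sacral and of the 6 rostral libraries. V1 and V6 sit lower and V3 higher in all 3 lumbar/sacral libraries, whereas the rostral libraries spread from 0.109 to 30.9% in V5.

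With V8 and V9 left out, 192 of 10040 genes tested (1.91%) differed between lumbar/sacral and rostral visceral nuclei at an adjusted p under 0.05. Of these, 116 were higher (1.16%) and 76 lower (0.757%) in the lumbar/sacral libraries, and in all 192 the 3 lumbar/sacral values lay outside the range of the 6 rostral values, as they did in 621 of all genes tested (6.19%). At an unadjusted p under 0.05 there were 997 of the 10040 genes. These 997 and the 1.91% called are the background for the counts in gene lists below. A log2 difference of at least 1 was reached by 80 higher and 40 lower of the genes called. The count of genes called was 94 without lumbar/sacral replicate 1 and 90 without lumbar/sacral replicate 2. It was 140 without the 2 rostral replicate 2 libraries, and 126 of the 192 were still called then. Without lumbar/sacral replicate 1, 6 of the 30 leading genes given below lost the call (Cpa6, Pcsk5, Grin2c, Nox4, Colec12 and Abca1), and without lumbar/sacral replicate 2 it was these 6 with Arpp21 and Galnt13. Lumbar/sacral nuclei had the lower totals, and after thinning to 3200 corrected counts a nucleus all 30 were called, of 170 genes in all. In these sums, fewer cells of a type and less RNA per cell cannot be told apart.

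The receptors among the leading genes moved in both directions. Erbb4, a receptor tyrosine kinase for neuregulins (chr1:68032186-69108059, GRCm38), led the list at 2496, 1341 and 1650 CPM in the lumbar/sacral libraries. In the rostral libraries it ran from 50.8 to 131 CPM with a median of 93.3. The lowest lumbar/sacral library was thus far above the highest rostral one, and the log2 difference was 4.29 (SE 0.31, adjusted p = 0.000122). Rxfp1, a receptor for the hormone relaxin (chr3:79641611-79737880), was at 158, 73.9 and 137 CPM against 0.588 to 5.93 CPM (median 3.11), with a log2 difference of 3.93 (SE 0.28, adjusted p = 0.000122). Adra1a, the alpha-1A adrenergic receptor, was at 93.1, 53.4 and 65.8 CPM and between 4.67 and 5.76 CPM in every rostral library (log2 difference 2.84, SE 0.16, adjusted p = 4.74e-05). In each of these 3 receptors every lumbar/sacral library was above every rostral one, as the naming rule required.

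Muscarinic acetylcholine receptors diverged. Chrm3, which couples to phospholipase C, rose from 44.1 to 140 CPM (median 101) to 594, 374 and 388 CPM, a log2 difference of 2.21 (SE 0.29, adjusted p = 0.00366). Chrm2, which couples to inhibitory G proteins, fell by 1.10 on the log2 scale (SE 0.20, adjusted p = 0.0221), from 254 to 443 CPM to 172, 138 and 160 CPM. Neither gene's lumbar/sacral values overlapped the rostral ones. Of 12 monoamine and acetylcholine receptors tested, 2 rose (Adra1a and Chrm3) and 1 fell (Chrm2), with a median log2 difference of 0.02 beside 0.06 over all genes. Htr2c, a serotonin receptor, was at 440 to 653 CPM against 756 to 1434 CPM (log2 difference -0.86, adjusted p = 0.105). Hcrtr2, a receptor for the arousal peptides called orexins, fell by 1.51 (log2, SE 0.13, adjusted p = 0.000292) to 42.2, 31.9 and 50.3 CPM from a narrow rostral range of 119 to 146 CPM. V8 in turn held Hcrtr2 at 284, 145 and 207 CPM, and with V8 and V9 put back the log2 difference was -0.43 (adjusted p = 0.334).

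Receptor genes for fast transmitters were called in both directions. Of 40 receptors for glutamate, GABA and glycine, 3 fell and 1 rose, beside 1.91% of all genes called, and the median log2 difference of the list was -0.02. At an unadjusted p under 0.05, 8 were higher and 6 lower, beside 997 of all 10040 genes in either direction. Grin2c, a subunit of the NMDA receptor, was at 2.91, 3.94 and 7.40 CPM against 11.2 to 31.6 CPM (log2 difference -1.47, SE 0.26, adjusted p = 0.0166). Grin2b, another subunit, fell by 0.64 (adjusted p = 0.033), and Grm5, a metabotropic receptor, by 0.97 (adjusted p = 0.0297) to 824, 578 and 718 CPM. Grik3, a kainate receptor subunit, rose by 1.48 (SE 0.21, adjusted p = 0.00476) to 19.9, 14.9 and 17.8 CPM.

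**Figure D2:**
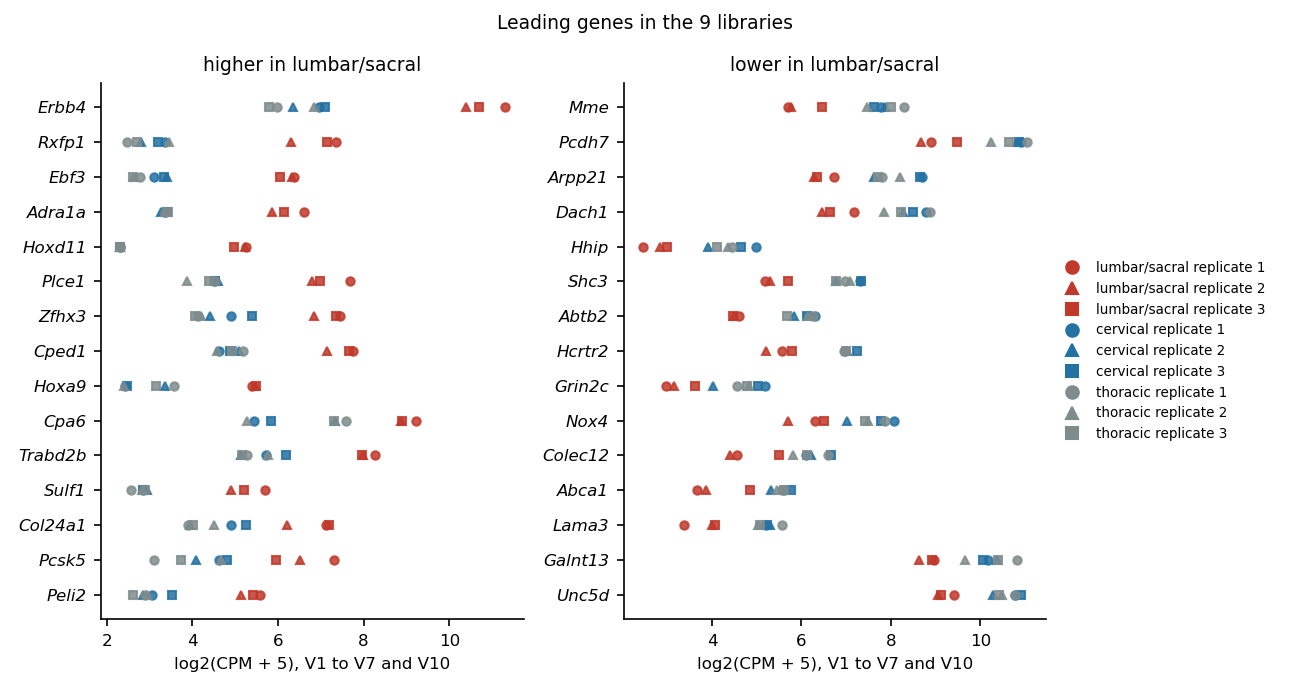
Level of the 15 genes with the largest higher (left) and the 15 with the largest lower (right) log2 difference (vertical axis) in each of the 9 libraries (horizontal axis, log2 of CPM plus 5, summed over V1 to V7 and V10). Colours are regions and shapes are replicates, and in each of the 30 genes the 3 red lumbar/sacral points lie outside the range of the 6 rostral points, as the naming rule required.

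Of 45 potassium channel genes tested, 3 rose and 0 fell by limma, beside 1.91% of all genes called, and their median log2 difference was 0.14. At an unadjusted p under 0.05, 10 were higher and 6 lower, beside 997 of all 10040 genes in either direction. With the replicate as a block, Kcnip1, an auxiliary subunit of such channels, was also called, as lower (log2 difference -0.69, adjusted p = 0.0564 without and 0.0205 with the block). Kcnk2, a background potassium channel, rose by 2.10 (log2, SE 0.27, adjusted p = 0.00341), from 27.7 to 67.0 CPM to 139, 239 and 194 CPM. Kcna4, a fast-inactivating voltage-gated channel, rose by 1.58 (adjusted p = 0.00288) and Kcnk13, another background channel, by 1.68 (adjusted p = 0.00227). Of 30 calcium, sodium and HCN channel genes 1 rose and 0 fell by limma (2 were lower at an unadjusted p under 0.05, and Cacna1g, at a log2 difference of -0.49, had an adjusted p of 0.288, and 0.0263 with the block). The gene that rose was Cacna1d, a subunit of the L-type calcium channel, at 261, 322 and 292 CPM against 164 to 222 CPM (log2 difference 0.56, adjusted p = 0.0492). The median of these 30 genes was 0.01.

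Among transcription factors and their regulators the largest differences were again upward. Ebf3, a helix-loop-helix factor of neuronal differentiation, was at 78.6, 74.8 and 61.4 CPM and at 1.10 to 5.67 CPM in rostral libraries (median 2.78), a log2 difference of 3.27 (SE 0.22, adjusted p = 9.54e-05). Zfhx3, a large zinc finger homeobox factor, was at 170, 110 and 160 CPM against 11.8 to 37.1 CPM (log2 difference 2.70, SE 0.29, adjusted p = 0.00132). Its relative Zfhx4 rose by 1.58 (adjusted p = 0.0075). In contrast Dach1, a nuclear cofactor, fell by 1.66 (SE 0.23, adjusted p = 0.00494), from 225 to 462 CPM to 139, 83.1 and 95.4 CPM. Of 36 neuronal transcription factors tested, 3 rose and 2 fell, Foxp2 being the other that fell, and the median of the list was -0.09. Of 4 genes of the retinoic acid pathway, Rarb, a nuclear receptor for retinoic acid, rose by 1.89 (SE 0.18, adjusted p = 0.000684) to 50.9, 40.7 and 52.5 CPM, while Aldh1a1, an enzyme that makes the ligand, fell by 1.15 (adjusted p = 0.0433, and 0.0593 with the replicate as a block). The median of these 4 was 0.07. Of 4 immediate early genes, 0 were called by limma and 0 were at an unadjusted p under 0.05 (Nr4a1 had the lowest, adjusted p = 0.626), and their median was -0.09.

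Hox genes that were called all rose. Hoxd11 (chr2:74679557-74687016), a gene of the lumbar and more caudal levels of the embryo, was at 32.98, 32.4 and 26.6 CPM in the lumbar/sacral libraries and at 0 in all 6 rostral libraries. Against the floor of 3 corrected counts over the rostral group it was at least 366-fold higher, and 0 of 3866 rostral nuclei had a count, which allows a share of nuclei with a count of up to 0.0776%. This limits nuclei with a count and not nuclei that express the gene. Hoxa9 was at 37.3, 38.9 and 40.0 CPM against 0.296 to 6.94 CPM (log2 difference 2.55, SE 0.29, adjusted p = 0.00176). Hoxa7 was at 20.4, 34.6 and 17.0 CPM against 0.562 to 8.37 CPM (log2 difference 1.68, SE 0.31, adjusted p = 0.0235). These 3 were the members called among 5 of 28 Hox genes that passed the filter on low values, with 0 lower also at an unadjusted p under 0.05, and the filter favours genes that are high in 3 libraries. Hoxc5 (log2 difference 0.61, adjusted p = 0.589) and Hoxc4 (0.02, adjusted p = 0.992) did not pass, and the annotated spans of Hoxc5 and Hoxc10 overlap, so counts of Hoxc5 are uncertain. Below the filter, Hoxd10, Hoxa11, Hoxc11 and Hoxc12 had counts in all 3 lumbar/sacral libraries, at 0.74 to 7.76 CPM, and were at 0 in all 6 rostral ones. Hoxa10 was at 7.27, 17.9 and 15.5 CPM against at most 0.824 CPM. Hoxb13 and Hoxd13, the most caudal members of their clusters, were at 0 in every library. The median log2 difference of the 5 Hox genes tested was 1.68, the value of Hoxa7, beside 0.06 over all genes. Hoxd11, Hoxa9 and Hoxa7 passed the filter of 10 CPM only through the lumbar/sacral libraries. The median thus follows from the filter and says nothing about Hox genes as a set.

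**Figure D3:**
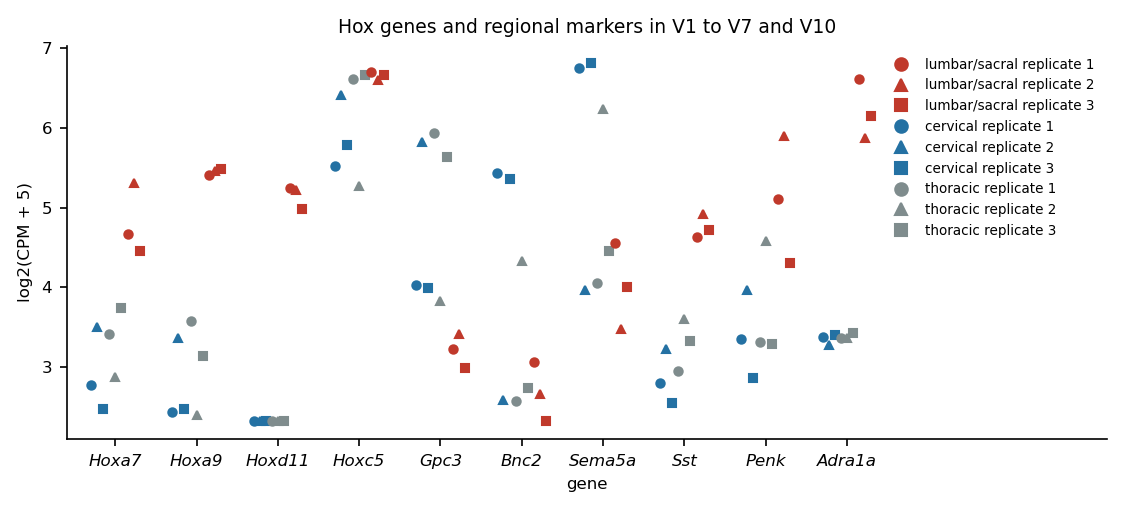
Level (vertical axis, log2 of CPM plus 5) of 4 Hox genes and 6 regional marker genes (horizontal axis) in each of the 9 libraries, for nuclei of V1 to V7 and V10. Hoxd11 and Adra1a separate all 3 lumbar/sacral libraries (red) from the rest, and in Hoxa9, Gpc3, Bnc2 and Sema5a the triangles labelled cervical and thoracic replicate 2 lie with the other region's circles and squares.

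Adhesion and guidance genes moved in both directions. Pcdh7, a protocadherin, was at 475, 406 and 707 CPM against 1209 to 2106 CPM (median 1827) and fell by 1.73 on the log2 scale (SE 0.21, adjusted p = 0.00228). Unc5d, a receptor of the netrin receptor family (chr8:28646717-29219636), was at 676, 524 and 553 CPM against 1232 to 1909 CPM and fell by 1.41 (SE 0.16, adjusted p = 0.00199). Epha7, an ephrin receptor, fell by 1.23 (SE 0.26, adjusted p = 0.0415) and Nrp2, a semaphorin coreceptor, by 0.86 (adjusted p = 0.0297), and Efnb2, an ephrin ligand, was the other one of the list that fell. A second ephrin receptor, Epha5, rose by 1.15 (SE 0.15, adjusted p = 0.00341), from 226 to 363 CPM to 602, 618 and 703 CPM. Of 46 axon guidance genes tested, 4 fell and 1 rose, with a median of -0.06. Of 22 cadherins and protocadherins, 4 rose and 2 fell (median -0.12). Cdh4, a classical cadherin, rose by 1.80 (SE 0.18, adjusted p = 0.000813) to 370, 320 and 268 CPM from 64.3 to 125 CPM, and Cdh23 rose by 2.35 (SE 0.27, adjusted p = 0.00176).

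Enzymes that act outside the cell or in the secretory path stood on both sides. Mme, the neutral endopeptidase neprilysin that cleaves peptides at the cell surface (chr3:63241537-63386030), was at 47.0, 49.4 and 83.6 CPM against 172 to 310 CPM and had the largest fall, 1.86 on the log2 scale (SE 0.21, adjusted p = 0.00176). Cpa6, a secreted carboxypeptidase, was at 591, 464 and 473 CPM against 33.8 to 188 CPM (log2 difference 2.53, SE 0.53, adjusted p = 0.0428). Its call was lost with the replicate as a block (adjusted p = 0.0606) and without the 2 rostral replicate 2 libraries (adjusted p = 0.069), and its rostral values fell into 33.8 to 52.5 CPM in 3 libraries and 152 to 188 CPM in the others, the library labelled cervical replicate 2 being high and the one labelled thoracic replicate 2 low. Pcsk5, a proprotein convertase, was at 152, 87.1 and 57.0 CPM against 3.65 to 23.0 CPM (log2 difference 2.42, SE 0.40, adjusted p = 0.0121). Pcsk2, the convertase of many neuropeptides, fell by 1.08 (SE 0.17, adjusted p = 0.00752) to 37.3, 56.9 and 50.3 CPM. Trabd2b, a membrane metalloprotease that acts on Wnt proteins, rose by 2.53 (SE 0.23, adjusted p = 0.000433), and Sulf1, which removes sulfate groups from heparan sulfate, rose by 2.44 (SE 0.20, adjusted p = 0.000201). Galnt13, an enzyme that starts O-linked sugar chains, fell by 1.41 (SE 0.22, adjusted p = 0.00807), while its relative Galnt18 rose by 1.49 (SE 0.21, adjusted p = 0.00457).

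Matrix genes were split evenly. Of 22 collagens and laminins, 2 rose and 2 fell, with a median of -0.15. Col24a1, a fibrillar collagen, rose by 2.42 (SE 0.34, adjusted p = 0.00487) to 135, 69.6 and 141 CPM from 9.88 to 33.2 CPM, and Lama5 by 0.77 (adjusted p = 0.0248). Lama3, a laminin chain, fell by 1.42 (SE 0.18, adjusted p = 0.00285) to 5.33, 10.9 and 11.8 CPM from 27.9 to 42.4 CPM, and Col12a1 by 1.13 (adjusted p = 0.0204).

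The other leading genes were signalling and transport genes. Plce1, a phospholipase C, was at 200, 107 and 122 CPM against 9.78 to 19.2 CPM (log2 difference 2.75, SE 0.21, adjusted p = 0.000153). Cped1 was at 209, 136 and 195 CPM against 18.7 to 31.5 CPM (log2 difference 2.63, adjusted p = 9.54e-05), and Peli2, a ubiquitin ligase, rose by 2.40 (adjusted p = 0.00037). Among those that fell, Arpp21, a cAMP-regulated phosphoprotein, went from 191 to 411 CPM to 102, 72.6 and 76.2 CPM (log2 difference -1.66, SE 0.26, adjusted p = 0.00909). Its call was lost with V8 and V9 put back (log2 difference -1.02, adjusted p = 0.0632), V8 holding it at 222, 222 and 245 CPM. Hhip, a hedgehog-binding protein, fell by 1.65, Shc3, a signalling adaptor of neurons, by 1.64, Abtb2 by 1.54, Nox4, an NADPH oxidase, by 1.44, Colec12, a scavenger receptor, by 1.44 and Abca1, a lipid transporter, by 1.43, with adjusted p-values of 0.000684 to 0.0185.

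Neuropeptide genes were also looked at with V8 and V9 set aside. Of 16 neuropeptide and processing genes tested, 1 rose (Sst) and 1 fell (Pcsk2), with a median of -0.08, beside 192 genes called of 10040 in all (1.91%). Sst, which encodes somatostatin, was at 19.9, 25.4 and 21.4 CPM against 0.843 to 7.11 CPM (log2 difference 1.69, SE 0.24, adjusted p = 0.0051), beside 346, 324 and 484 CPM in V8 of the same libraries. Skeletal MNs and interneurons of the lumbar/sacral libraries reached 19.2 and 19.6 CPM, and the difference of the regional contrast from that of interneurons had an adjusted p of 0.058. A count of Sst was seen in 11.3% ± 3.89 of the lumbar/sacral members (SD, n = 3), in 9.39% ± 3.19 of skeletal MNs and in 9.44% ± 2.38 of interneurons, at median totals of 5085, 5809 and 4948. After thinning to 3200 corrected counts the shares were 7.64% ± 1.01, 4.99% ± 1.30 and 5.68% ± 0.755. The 3 classes thus lay within 1 SD of each other as deposited. After thinning the members lay more than 1 SD above the other classes, which still lay within 1 SD of each other. In rostral libraries the thinned shares were 1.21% ± 0.785, 1.86% ± 1.14 and 1.57% ± 0.893 (SD, n = 6), below the lumbar/sacral ones in all 3 classes. The part of RNA from V8 nuclei of the lumbar/sacral libraries in these classes was not tested. Penk, which encodes enkephalins, was at 29.6, 54.7 and 14.8 CPM against 2.25 to 19.0 CPM (log2 difference 1.54, adjusted p = 0.123, and 0.0034 with the replicate as a block). Of the 7 regional markers the study names, which it chose on these samples, Adra1a and Sst rose and 0 fell by limma (1 was lower at an unadjusted p under 0.05), and the median was -0.10. Gpc3 was at 4.37, 5.69 and 2.96 CPM against 9.19 to 56.1 CPM and was not called (log2 difference -1.66, adjusted p = 0.225), nor were Sema5a (-1.37, adjusted p = 0.604), Bnc2 (-1.15, adjusted p = 0.735) and Dach2 (-0.10, adjusted p = 0.976). The study took its markers from all visceral nuclei. It also counted Gpc3, Dach2, Sema5a and Sst by in situ hybridization in Fbn2+ cells. Here V9 was left out, which had 1, 1 and 2 nuclei in lumbar/sacral libraries and 17 to 63 in rostral ones. Cervical and thoracic libraries were also pooled, so these values do not test the study's markers.

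Of 11 genes of visceral and cholinergic identity tested, 2 rose (Fbn2 and Ret) and 1 fell (Zeb2), and their median was -0.07. Ret, the receptor subunit for GDNF-family ligands, rose by 0.97 (SE 0.18, adjusted p = 0.0271) to 22.3, 24.1 and 15.5 CPM. Slc5a7, the choline transporter, was at 245 to 267 CPM against 302 to 511 CPM without overlap (log2 difference -0.60, adjusted p = 0.103). Of 6 skeletal MN markers, Rbfox3, an RNA-binding protein of most neurons, rose by 0.99 (SE 0.10, adjusted p = 0.000754), and Gpr149 and Nrp2 fell, by 1.29 and 0.86. The median of these 6 was -0.34.

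The difference that the mix of clusters would give by itself was also computed. For this, each cluster was held at its mean rostral level and weighted once by the mean lumbar/sacral and once by the mean rostral shares of the clusters. The resulting difference had a median of 0.09 for the 116 higher genes, whose observed median was 1.31, and of -0.07 for the 76 lower genes, whose observed median was -1.05. It had the same sign as the observed difference in 136 of 192 genes and reached at least 0.5 of its size in 3. For Erbb4 the mix gave -0.10, for Rxfp1 0.21 and for Mme -0.10. When V1, V2, V3, V4 and V7 were each given equal weight, 85 genes were called (0.847%), of which 53 were higher and 32 lower. The same sign was found for 190 of the 192 genes, 68 were called both ways, and 9 of the 30 leading genes lost the call. The part of the mix in the differences was not tested beyond these values. Among genes with 1 sign in every cluster tested, a condition of the choice and no result, Erbb4 (log2 difference 3.01, adjusted p = 0.000791), Cped1 (2.60, adjusted p = 0.000791), Hoxa9, Rxfp1, Galnt18 and Zfhx3 were the highest under equal weight, and Epha7 (-1.68, adjusted p = 0.00398), Pcdh7, Unc5d, Chrm2, Mme and Galnt13 the lowest.

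The number of genes called differed between the clusters. Within V2, 335 of 10318 genes were called (3.25%), within V3 185 of 10077 (1.84%) and within V4 301 of 10255 (2.94%). Within V1 it was 3 of 9971 (0.0301%) and within V7 8 of 10221 (0.0783%), although both clusters had nuclei in all 9 libraries. At an unadjusted p under 0.05 by limma, V1 and V7 had 1084 and 1073 genes. In V2, V3, V4 and V5 there were 1140, 920, 1185 and 1127, so by this looser count V1 and V7 did not stand apart. In V5, tested against the 4 rostral libraries that held at least 10 of its nuclei, 117 of 9716 were called (1.2%). In V6 1132 of 9895 were called (11.4%), a count that rests on 2 lumbar/sacral libraries with 13 and 10 nuclei. V10 had enough nuclei in 1 lumbar/sacral library and could not be tested. Of the 30 leading genes, 26 of the 29 tested were called in V2, 17 of 29 in V3, 14 of 20 in V4 and 17 of 28 in V5, but 0 of 20 in V1 and 1 of 18 in V7, the one being Cpa6. These genes were chosen by their difference in the sum of the clusters. To its lumbar/sacral side V2, V3, V4 and V5 gave 234, 225, 160 and 206 nuclei, and V1 and V7 gave 73 and 70. The choice thus favoured the larger clusters, and these counts of leading genes are no independent support for a difference between clusters.

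The difference between clusters was also tested itself. The regional contrast of V2 differed from that of V1 in 286 of 10743 genes (2.66%) and from that of V7 in 221 of 10894 (2.03%). The contrast of V3 differed from that of V1 in 136 genes (1.28%) and from that of V7 in 85 (0.788%), and the contrast of V4 from that of V1 in 280 (2.62%) and from that of V7 in 97 (0.897%). Of the leading genes tested, 17 of 30 differed between V2 and V1 and 18 of 30 between V2 and V7, against 6 of 30 and 8 of 29 for V3 and 6 of 20 and 1 of 21 for V4. The choice of the leading genes by the sum favoured these last counts too. The lumbar/sacral sums of V1 and V7 were smaller, at 91442 to 176576 corrected counts, than those of V2, V3 and V4, at 218587 to 558753, and the part of depth in these counts was not tested.

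Erbb4 shows how far the clusters differed. In V2 it was at 3619, 2880 and 4344 CPM in the lumbar/sacral libraries and at 3.97 to 33.6 CPM in the 6 rostral libraries, with a median of 9.98. The log2 difference within V2 was 7.66 (SE 0.37, adjusted p = 2.47e-07). In V5 it was at 3844, 2251 and 3173 CPM against 27.2 to 127 CPM, and in V6 at 5590 and 1819 CPM against 3.13 to 26.1 CPM. In these 3 clusters the lowest lumbar/sacral sum was thus far above the highest rostral one. In V3 it was at 1876, 907 and 1398 CPM against 122 to 259 CPM (log2 difference 2.79, SE 0.25, adjusted p = 5.89e-05), with a rostral level well above that of V2. In V1 it was at 736, 215 and 333 CPM against 98.7 to 371 CPM and the libraries overlapped (log2 difference 0.97, adjusted p = 0.468). V4 (50.6 to 129 against 11.3 to 48.9 CPM, adjusted p = 0.0591) and V7 (82.3 to 306 against 17.0 to 74.1 CPM, adjusted p = 0.11) did not overlap and did not pass. The contrast of V2 exceeded that of V1 by 6.69 (SE 0.43, adjusted p = 8.31e-05) and that of V7 by 5.63 (SE 0.64, adjusted p = 0.00212).

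**Figure D4:**
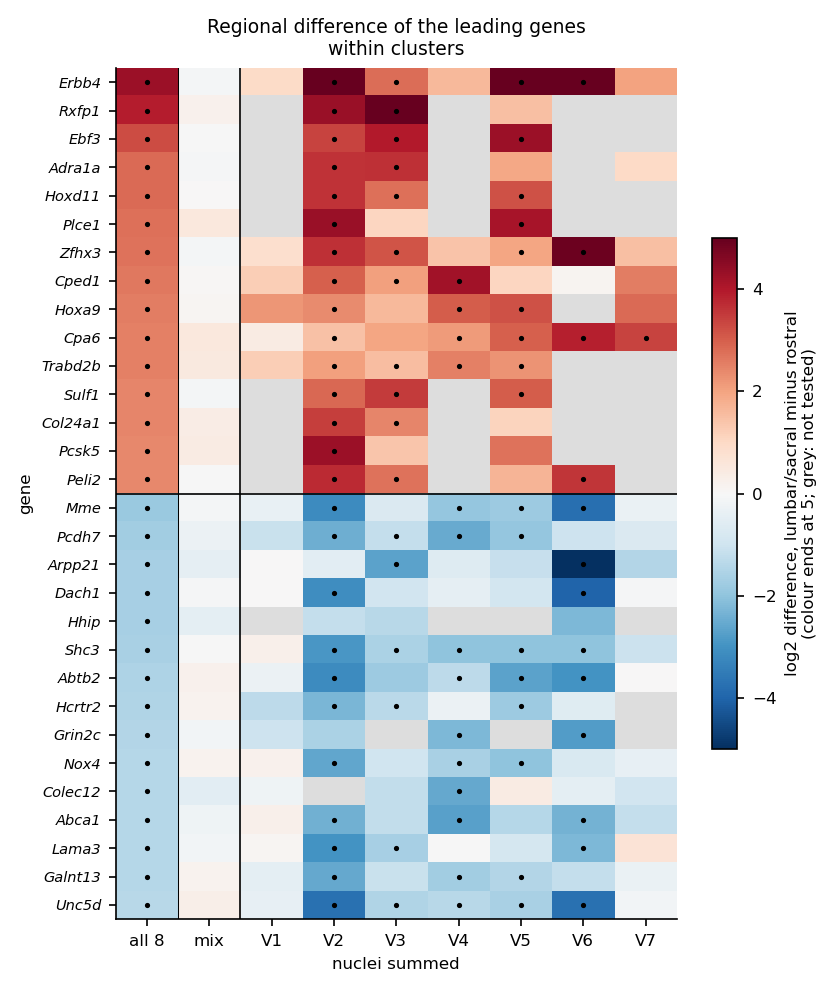
Log2 difference between lumbar/sacral and rostral libraries (colour, red higher and blue lower, scale ending at 5) of the 30 leading genes (rows) in the sum of the 8 clusters, in the mix alone and within 7 clusters (columns). Black points mark an adjusted p under 0.05 and grey cells were not tested. Points fill V2 (26 of 29 genes) and are absent from V1 (0 of 20), and the mix column is close to white. The genes were chosen by the sum, in which V2 had more lumbar/sacral nuclei than V1.

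Other genes followed their own clusters. Rxfp1 in V3 was at 410, 191 and 322 CPM and at no more than 1.29 CPM in any rostral library (log2 difference 5.81, SE 0.29, adjusted p = 2.05e-07), and in V2 at 148, 82.4 and 244 CPM against 0 to 10.1 CPM. Chrm3 in V2 was at 0 to 24.03 CPM in rostral libraries and at 770, 579 and 692 CPM in lumbar/sacral ones (log2 difference 5.88, SE 0.46, adjusted p = 1.13e-05), whereas in V3 it was at 771 to 1174 CPM against 177 to 737 CPM and did not pass (log2 difference 1.17, adjusted p = 0.227). Cped1 had its largest difference in V4, at 535, 370 and 201 CPM against 7.34 to 28.4 CPM (log2 difference 4.19, SE 0.34, adjusted p = 4.1e-05). In rostral nuclei Chrm3 was thus lower in each V2 sum than in any V3 sum, and a difference between these contrasts was not tested.

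Several falls were also within clusters. Unc5d in V2 was at 286, 151 and 83.99 CPM against 1583 to 3071 CPM (log2 difference -3.73, SE 0.32, adjusted p = 2.34e-05), and Mme in V2 at 23.3, 28.9 and 36.0 CPM against 216 to 400 CPM (log2 difference -3.14, SE 0.21, adjusted p = 3.24e-06). Pcdh7 in V4 was at 324, 210 and 453 CPM against 1331 to 2929 CPM (log2 difference -2.53, SE 0.29, adjusted p = 0.000357). Zeb2, used as a marker of the whole class, was at 94.5, 98.5 and 110 CPM in lumbar/sacral V4 against 468 to 682 CPM (log2 difference -2.41, SE 0.15, adjusted p = 4.72e-06) and was also called in V2 (-0.76, adjusted p = 0.0425) but in none of V1, V3, V5, V6 and V7. Gpc3, a cell-surface proteoglycan that did not pass in the sum, was at 3.58, 6.68 and 4.00 CPM in lumbar/sacral V2 and at 137 to 283 CPM in rostral V2 (log2 difference -4.33, SE 0.26, adjusted p = 2.31e-06), the libraries labelled replicate 2 included. In V6, in the 2 lumbar/sacral libraries tested, Fbn2 was at 1717 and 734 CPM against 54.0 to 118 CPM without overlap and Arpp21 at 0 and 103 CPM against 544 to 1222 CPM, again without overlap.

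For Erbb4, Rxfp1, Hoxd11, Mme and Unc5d the shares of nuclei followed the levels. Erbb4 had a count in 59.6% ± 6.97 of lumbar/sacral members (SD, n = 3) and in 25.4% ± 7.99 of rostral members (n = 6). After each nucleus was thinned to 3200 corrected counts the shares were 55.8% and 14.2%. Rxfp1 had a count in 25.6% ± 3.69 and 1.63% ± 0.848, with 2.50% of lumbar/sacral skeletal MNs and 1.22% of interneurons beside it, classes in which it was near background. Hoxd11 had a count in 14.4% ± 3.45 of lumbar/sacral members. Mme went the other way, with 21.4% ± 5.31 and 64.4% ± 9.83 (14.97% and 41.6% after thinning), and Unc5d had a count in 48.8% ± 3.27 and 84.9% ± 4.62. The share of nuclei with a count thus differed in the direction of the level for these genes in both versions given.

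The same contrast was made in the other cholinergic neurons of the same libraries, which had been sorted, sequenced and normalized together with the visceral nuclei. In skeletal MNs 2 of 9999 genes were called (0.02%), Hgf and Hoxd11, with 326 at an unadjusted p under 0.05. In cholinergic interneurons 8 of 9805 were called (0.0816%), with 347 at an unadjusted p under 0.05. The medians of the 116 higher genes in skeletal MNs and interneurons were 0.09 and -0.03 over the 95 and 97 of them tested, beside 0.12 and 0.01 over all genes, and those of the 76 lower genes were -0.04 and 0.01. The visceral contrast differed from the skeletal one in 251 of 10782 genes (2.33%) and from the interneuron one in 566 of 10526 (5.38%). Of the 30 leading genes, 23 differed from skeletal MNs and 29 from interneurons. These genes were chosen by their visceral difference, which is part of both contrasts. Their counts were thus favoured by the choice and are no independent support.

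Erbb4 differed by 5.13 (log2) from skeletal MNs (adjusted p = 5.9e-07) and by 4.26 from interneurons (adjusted p = 6.1e-05), where its own regional difference was 0.02. Interneurons held Erbb4 at up to 1089 CPM in lumbar/sacral libraries, so a high level was also found outside visceral nuclei. Region and the authors' normalization, made apart for each region, cannot be told apart in visceral nuclei alone, and the values in the other classes of the same libraries stand beside them. Hoxd11 was called in all 3 classes. In skeletal MNs its regional log2 difference was 2.91 (SE 0.17) and in interneurons 1.89 (SE 0.19), and it was at 0 in all rostral libraries of both classes, so these fitted values depend on the pseudocount of 5. The visceral difference of Hoxd11 did not differ from the skeletal one at the threshold (interaction -0.08, adjusted p = 0.79) but was 0.94 above that of interneurons (adjusted p = 6.1e-05). Hoxa9 was not called in skeletal MNs (1.46, adjusted p = 0.911) or interneurons (1.502, adjusted p = 0.9997), although its lumbar/sacral and rostral libraries did not overlap in either class. Its visceral contrast did not pass the threshold for a difference from skeletal MNs (1.09 higher, adjusted p = 0.0594) or interneurons (1.05 higher, adjusted p = 0.0923). Gldn and Sntg2 were called in opposite directions, Gldn at -1.02 in interneurons and 1.59 in visceral nuclei (adjusted p = 0.0127 and 0.00489) and Sntg2 at -1.36 and 0.95 (adjusted p = 0.00107 and 0.0428).

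**Figure D5:**
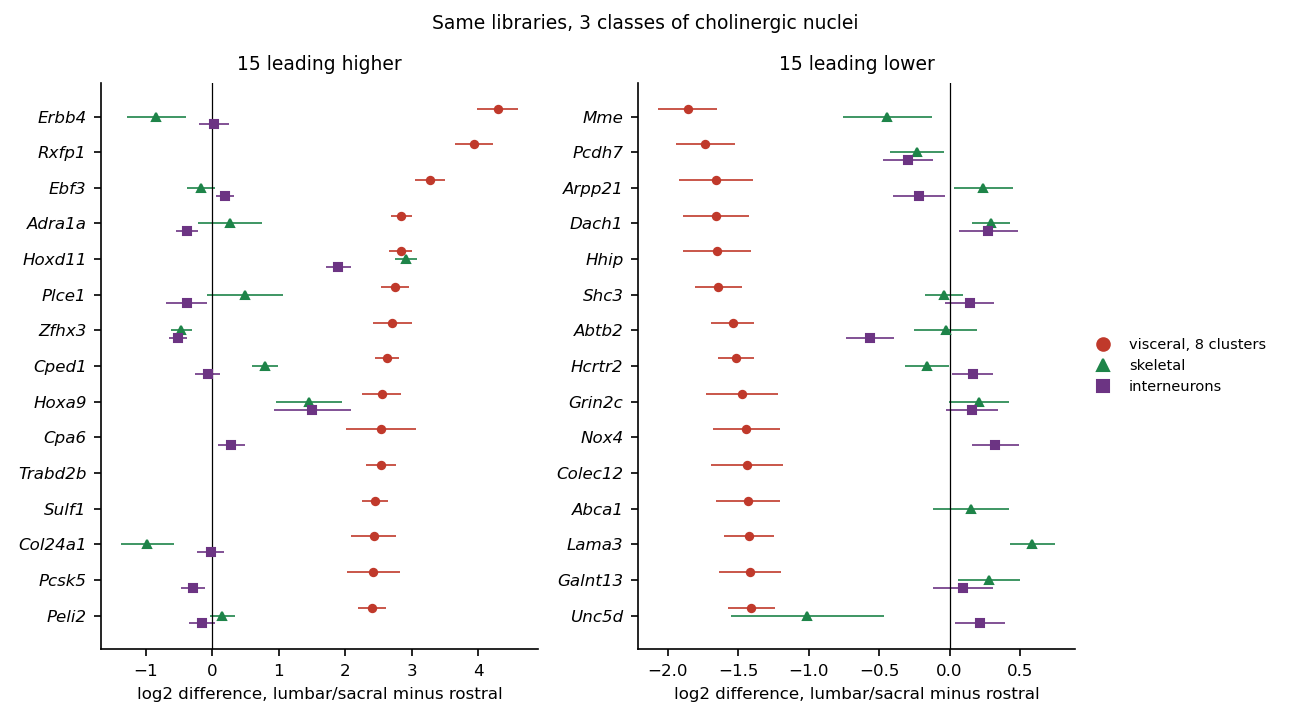
Log2 difference between lumbar/sacral and rostral libraries (horizontal axis, bars are the SE) of the 15 leading higher and 15 leading lower genes (vertical axis) in visceral nuclei of the 8 clusters (circles), skeletal MNs (triangles) and cholinergic interneurons (squares) of the same 9 libraries. A missing symbol means that the gene did not pass the filter in that class. Hoxd11 is near 2.83 in visceral and 2.91 in skeletal nuclei, whereas Erbb4 is near 4.29 in visceral nuclei, -0.84 in skeletal MNs and 0.02 in interneurons.

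V8, the cluster left out, was above the remaining lumbar/sacral nuclei in some of these genes and below them in others. Of the 116 higher genes, 55 were higher in V8 than in the lumbar/sacral members and 23 were below the rostral level. Rxfp1 was at 520, 354 and 478 CPM in V8 and Zfhx3 at 622, 546 and 593 CPM, both above the members. Erbb4 was at 687, 396 and 731 CPM in V8, below the members of the same libraries, and Cdh23 at 3.88, 3.87 and 1.55 CPM beside 78.6, 51.2 and 31.1 CPM in the members. Of the 76 lower genes, 61 were lower still in V8 and 4 were above the rostral level. These numbers set levels side by side. The same counts over all genes tested are not given, so they do not measure how alike V8 and the members were. The assignment of single nuclei between V8 and the other clusters was not tested. With V8 and V9 included, 28 of the 30 leading genes were called.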

How the data were processed

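Libraries were made by the authors with 10x Chromium 3' chemistry from sorted nuclei, aligned to GRCm38 (mm10) with Cell Ranger 3.1.0, as the submitters' processing notes give it, and normalized with SCTransform in Seurat, each region apart, per the study's methods. The deposited values are corrected counts of 21457 features, whole numbers that a model has adjusted, and were treated as a score, so no count model was used. Region, cluster and replicate came from the deposited labels of each nucleus, and no column of per-sample values was left out (0). The authors removed outlying nuclei, and no doublet caller was run here. Gene spans are those of GENCODE vM21 (GRCm38).

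Corrected counts were summed per library over the nuclei of a class or cluster (at least 10 nuclei) and scaled to 1000000. A gene was tested where 3 or more sums reached 10 CPM, with limma 3.58.1 (trend, two-sided, R 4.3.3) on log2(CPM + 5), which understates changes of low genes, with Benjamini-Hochberg adjustment over all genes tested. Shares were tested by exact permutation (scipy 1.17.1), and tables were handled in Python 3.11.15 with numpy 2.4.6 and pandas 2.3.3 and drawn with matplotlib 3.10.9. Same-numbered libraries come from the same mice, and their deviations correlated at -0.141 to 0.865 over 9 pairs. The fit was tested on simulated data with these groups and library totals. Genes above a set level were changed by 1 or 1.5 on the log2 scale, and 99% of them were found. Of the calls, 10% were false, more than the threshold of 0.05 aims at, so calls near it are less certain. Noise was drawn apart for each gene and library. Shared deviations of a pool, low genes and smaller changes were thus not covered.

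Named genes were called, with a log2 difference of at least 1, no overlap of libraries and a gene symbol: the 15 highest, the 15 lowest, the 6 highest and 6 lowest under equal weight of clusters with 1 sign throughout, the 7 regional markers and up to 4 of each of 17 lists by p. The result of 1 list is not reported here. Efnb2, Foxp2, Hgf, Gldn and Sntg2 and the Hox genes below the filter were named after their values were seen, as were the clusters given for single genes. The members and lists were chosen with earlier results of these data known. Alternatives changed the pseudocount, scaling, filter, block, clusters, depth and libraries. Totals differ between regions and the depth in raw reads is unknown. Shares and limits cover counting error only.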

Additional observations from a re-analysis of the deposited data

Results flagged for a closer look

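Among the 6 rostral libraries, 1 library lay apart from the others in 3 of 41 genes looked at. The gap to its nearest neighbour, as a share of the whole range, was 0.72 for Plce1, 0.685 for Sulf1 and 0.775 for Hcrtr2, above the critical value of 0.625 for 6 samples. Chance gives this in about 1 of 20 groups.

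For 23 of the 30 leading genes the regional difference in visceral nuclei differed from that in both skeletal MNs and interneurons of the same libraries by limma at an adjusted p under 0.05. The choice of these genes by their visceral difference favoured this outcome, so the count is no independent support. Against interneurons the difference of the contrasts, on the log2 scale, was 4.26 for Erbb4, 3.79 for Rxfp1, 3.08 for Ebf3, 3.22 for Adra1a, 3.13 for Plce1, 3.22 for Zfhx3 and 2.70 for Cped1. It was 3.21 for Trabd2b, 2.17 for Sulf1, 2.45 for Col24a1, 2.71 for Pcsk5 and 2.56 for Peli2. Among lower genes it was -1.44 for Pcdh7, -1.44 for Arpp21, -1.93 for Dach1, -1.69 for Hhip, -1.78 for Shc3, -0.97 for Abtb2 and -1.68 for Hcrtr2. For Grin2c it was -1.63, for Abca1 -1.23, for Lama3 -1.49 and for Galnt13 -1.51.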

How the results depend on the processing

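The genes called, 192 with all libraries (116 higher, 76 lower), numbered 84 against cervical libraries only and 49 against thoracic libraries only (42 higher, 7 lower), 478 with all 10 visceral clusters and 85 with equal weight of clusters. With the replicate block, which pairs libraries of the same mice, there were 285 (155 higher, 130 lower), of which 188 were among the 192. The block ended the calls of Cpa6 and Aldh1a1 and of the 3 cluster shares, called Penk, Kcnip1 and Cacna1g, and changed no other call among the named genes. Leaving out 1 library or 1 replicate number gave 23 to 176, and 23, 36 and 57 without replicates 1, 2 and 3. A term for the cluster in place of sums gave 159 (77 higher, 82 lower) and no filter gave 267 (194 higher, 73 lower). Other pseudocounts, scaling by the median of ratios (130), a stricter filter, thinning, V9 kept and 3 regions apart stayed within 1.5 times of 192. Of the 30 leading genes, 0 changed sign under 27 alternatives (22 could be computed under the strict filter). Their naming required no overlap of libraries, which fixed the sign in advance wherever only libraries, pseudocount, block or filter changed. Of these genes, 16, 12 and 11 lost the call without replicates 1, 2 and 3, 11 against thoracic libraries only and 6 against cervical libraries only. With equal weight of clusters 9 lost it, with the cluster term 7, and under any other alternative up to 8. Of the 8 cluster shares, 3 were called with all libraries and 2 (V1 and V6) as shares of all visceral nuclei. The count was 0 against thoracic libraries only (smallest possible p 0.1), 0 with the replicate block, 0 without the rostral replicate 2 libraries and 0 without any 1 replicate number (smallest possible p 0.0667). The log2 difference of Dach2, -0.10 and not called, was 0.0591 against thoracic libraries only, 0.24 with equal weight of clusters and 0.0752 with the cluster term, and ran from -0.26 to 0.0795 when libraries were left out. The causes were not tested. The comparison without the rostral replicate 2 libraries, the mix alone and the contrasts between clusters were added after seeing the data. With 3 lumbar/sacral libraries and smaller totals there, low genes and V6 and V10 (7 to 20 nuclei a library) were resolved least.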
